A study of Mus musculus with 9 samples.

Results

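The genes described are 10 members of the Notch pathway: the receptors Notch1, Notch2, Notch3 and Notch4, the ligands Jag1, Jag2, Dll1 and Dll4, and the target genes Hes1 and Hey1. They were chosen by name from the 22609 genes listed, and all 10 were among the 13366 genes that passed the filter on low counts. Notch receptors are cleaved when a ligand on a neighboring cell pulls on them, and the released intracellular part enters the nucleus, binds the DNA-binding protein RBPJ and turns on genes of the Hes and Hey families. In tumors the pathway is known in carcinoma cells and in blood vessels, where Dll4 and Notch4 are typical of endothelial cells and Notch3 of the mural cells (pericytes and smooth muscle cells) around them.

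Tumors of 4T1, a mouse mammary carcinoma line and a model of triple-negative breast cancer (TNBC), were grown orthotopically in BALB/c mice, in the mammary fat pad, and profiled by RNA-seq. The LFD group received a diet with 10% of calories from fat and the HFD and HFD + EC359 groups one with 60%, from 6 weeks before 500000 cells were injected until the end. The vehicle, hydroxy propyl cellulose at 0.3%, was given in the LFD and HFD groups, and EC359, an inhibitor of the leukemia inhibitory factor receptor (LIFR), was given in the HFD + EC359 group at 5 mg/kg intraperitoneally on 5 days per week. Each group had 3 libraries, and the labels do not tie a library to an animal. The p-values therefore measure the spread between these libraries and cannot be read as measuring that between animals. The age of the mice is not given in the sources used here.

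Library totals ran from 5085357 to 6509130 counts with LFD, 7314704 to 7922852 with HFD and 8043649 to 9751201 with HFD + EC359. Depth thus differed between the groups without overlap, along with diet and inhibitor. A count of 0 allows up to 3 counts, or 0.308 to 0.59 CPM (counts scaled to the library total), for counting error alone. LFD 1 stood apart from its replicates, with a mean chi-square per gene of 3.10 and 2.54 against them, where the other pairs of replicates had 1.36 to 1.57. Counting error alone would give about 1, so those other pairs differed by little more than counting error. The libraries also differed by GC content: genes of low minus genes of high GC content gave a log2 CPM difference of -0.54 to -0.32 in the LFD group, 0.10 to 0.16 in the HFD group and 0.25 to 0.30 in the HFD + EC359 group, relative to the mean of all libraries. Among carcinoma markers, Krt8 and Krt18, keratins of luminal epithelium, lay between 286 and 611 CPM in all libraries, Cdh1 (E-cadherin) between 5.54 and 29.0 CPM and Epcam between 0.882 and 7.77 CPM, while Krt7 and Krt19 were too low to be tested. The tissue also held host cells. In such bulk tissue, fewer cells of a type and less RNA per cell cannot be told apart.

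HFD against LFD compares the diets under vehicle. At an adjusted p under 0.05 (edgeR's quasi-likelihood test, Benjamini-Hochberg adjustment over all tested genes), 4 of the 10 genes rose (Notch3, Notch4, Dll4 and Hey1), 3 fell (Notch2, Jag1 and Dll1) and 3 did not pass (Notch1, Jag2 and Hes1). Of all tested genes, 26% were called higher and 25.8% lower. Only Hey1 also passed a fold of 2 and an adjusted p under 0.01, the threshold of the study's methods, which 5.71% of all genes passed. The libraries of the groups did not overlap for 7 of the 10 genes, as for 57.1% of all genes. The median log2 fold change of the 10 genes was -0.07, that of all tested genes 0.007.

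HFD + EC359 against HFD compares the inhibitor with vehicle under the same diet. Here 2 of the 10 genes rose (Notch1 and Dll1), 4 fell (Notch3, Notch4, Jag1 and Dll4) and 4 did not pass (Notch2, Jag2, Hes1 and Hey1), beside 12.7% of all genes called higher and 13.9% lower. None of the 10 passed the fold of 2 (3.43% of all genes did), also with DESeq2, and the groups did not overlap for 7 of them (41.3% of all genes). Their median log2 fold change was -0.18, against 0.006 for all genes.

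HFD + EC359 against LFD differs in diet and inhibitor at once. In this comparison 2 of the 10 genes were higher (Notch1 and Hey1) and 5 lower (Notch2, Notch3, Jag1, Jag2 and Dll1), beside 29.2% and 29.1% of all genes. None of the 10 passed the fold of 2 (5.09% of all genes did) by either tool, and 7 did not overlap (62.9% of all genes), with a median of -0.08 against 0.01 for all genes. The 3 comparisons share libraries, so the values of a gene in them are not independent. Without LFD 1, which stood apart, 7, 7 and 6 of the 10 genes were called in the 3 comparisons, in place of 7, 6 and 7.

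**Figure D1:**
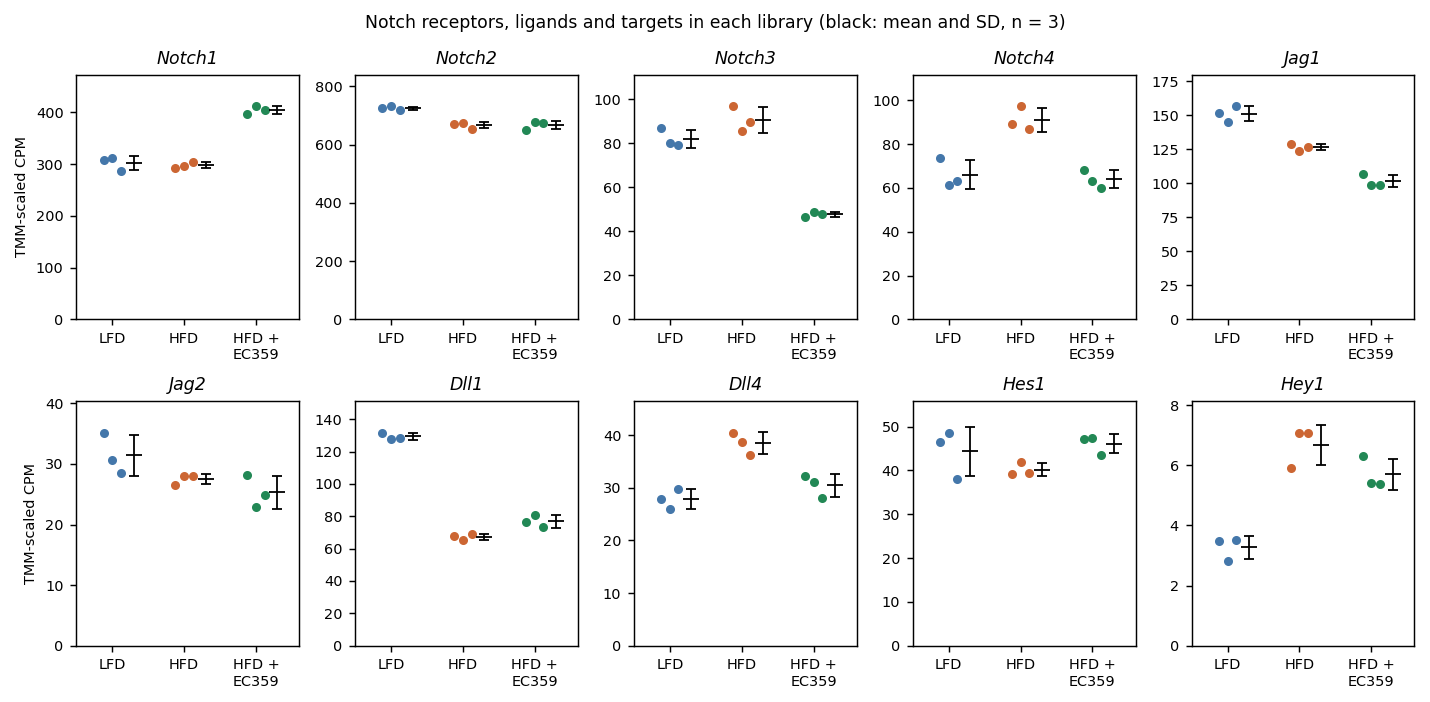
Each panel shows 1 gene on a linear axis of TMM-scaled CPM that starts at 0, with a point for each of the 3 libraries of LFD, HFD and HFD + EC359 and the mean with its SD in black. Notch1 stood at 397 to 411 CPM with EC359 and at 287 to 312 CPM in the other groups, Notch3 at 46.6 to 48.6 CPM with EC359 and at 79.0 to 96.6 CPM elsewhere, and Dll1 at 128 to 132 CPM with LFD and at 65.3 to 80.8 CPM in both HFD groups.

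The receptor that rose with EC359 was Notch1 (chr2:26313422-26359342 in mm9, minus strand), the widely expressed receptor best known from T cell development and leukemia. Its level was 308, 312 and 287 CPM in the LFD libraries, 293, 296 and 305 CPM in the HFD libraries, and 397, 411 and 404 CPM in the HFD + EC359 libraries. All 3 libraries with EC359 lay above the other 6, while LFD and HFD overlapped. The log2 fold change was 0.44 (SE 0.04) in HFD + EC359 against HFD (adjusted p 3.46e-11, edgeR's quasi-likelihood test, as for all adjusted p-values of genes below). In HFD against LFD it was -0.02, with a 95% interval of -0.10 to 0.06 (adjusted p 0.656), and its sign turned with library totals alone (0.02) and with the GC trend removed (0.08).

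Notch2, a receptor close to Notch1 in structure, moved little. Its level was 725, 731 and 719.5 CPM with LFD, 671, 675 and 654 CPM with HFD, and 651, 677 and 672 CPM with HFD + EC359. The LFD libraries were the highest, and the HFD and HFD + EC359 libraries overlapped. HFD against LFD gave a log2 fold change of -0.12 (SE 0.03, adjusted p 0.00199). HFD + EC359 against LFD also gave -0.12 (SE 0.03, adjusted p 0.00168), a call that was lost with library totals alone (-0.04, adjusted p 0.222). The difference of HFD + EC359 from HFD had a 95% interval of -0.06 to 0.06 on the log2 scale (adjusted p 0.988).

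Notch3 (chr17:32257838-32303797, minus strand) fell most with EC359 among the receptors. It was at 86.7, 80.0 and 79.0 CPM with LFD, 96.6, 85.3 and 89.6 CPM with HFD, and 46.6, 48.6 and 47.7 CPM with HFD + EC359. The HFD + EC359 libraries were the 3 lowest by a wide gap. The level was 1.90-fold lower than with HFD (log2 fold change -0.93, SE 0.06, adjusted p 4.49e-14) and 1.71-fold lower than with LFD (-0.78, SE 0.06, adjusted p 4.22e-12). Over the 17 alternatives run, the log2 fold change against LFD ran from -0.80 to -0.49 and was called in each. That of HFD against LFD ran from 0.10 to 0.33. The HFD and LFD libraries overlapped, and the call of a rise with HFD (log2 fold change 0.15, SE 0.06, adjusted p 0.0384) was lost with DESeq2 (adjusted p 0.141), with only these 6 libraries fitted (0.0524), and without LFD 2 (0.129), LFD 3 (0.140), HFD 1 (0.221) or HFD 3 (0.0704).

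Notch4 (chr17:34701240-34725488, plus strand), the receptor of endothelial cells, rose with HFD and fell with EC359. Its CPM was 73.8, 61.2 and 63.4 with LFD, 89.2, 97.2 and 86.7 with HFD, and 68.3, 63.2 and 60.2 with HFD + EC359. Every HFD library lay above the other 6, and the LFD and HFD + EC359 libraries overlapped. The log2 fold change was 0.47 (SE 0.07, adjusted p 7.49e-07) for HFD against LFD and -0.51 (SE 0.06, adjusted p 1.15e-07) for HFD + EC359 against HFD. For HFD + EC359 against LFD it was -0.04, with a 95% interval of -0.19 to 0.10 (adjusted p 0.619). That last value was 0.31 (adjusted p 1.08e-04) after joint removal of the trends over GC content and length. The GC content of Notch4 was 61.2%, and its part in that change was not tested.

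Per kilobase of exon, the summed level of the 4 receptors was 121 ± 2.63 CPM per kb with LFD, 120.0 ± 1.08 with HFD and 122 ± 1.76 with HFD + EC359 (mean ± SD, n = 3), so the receptors differed in their shares while the sum stayed within 118 to 124 CPM per kb in all 9 libraries. Notch1 made up 26.3% ± 0.703 of this sum with LFD, 26.2% ± 0.764 with HFD and 35.0% ± 0.127 with HFD + EC359. The share of Notch3 was 8.50% ± 0.294, 9.49% ± 0.611 and 4.93% ± 0.0297 in the same order, and that of Notch4 8.25% ± 0.731, 11.5% ± 0.607 and 7.96% ± 0.593. Notch2 was the largest share in every library, at 51.6% to 57.9%. These are shares of receptor RNA over all cells of the tumor.

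The ligand with the largest difference between the diets was Dll1 (chr17:15504318-15512787, minus strand), a Delta ligand that signals to neighboring cells. Its level was 132, 128 and 129 CPM with LFD, 67.9, 65.3 and 68.7 CPM with HFD, and 76.3, 80.8 and 73.2 CPM with HFD + EC359. The 3 groups did not overlap: LFD was the highest, HFD the lowest. Dll1 was 1.92-fold lower with HFD than with LFD (log2 fold change -0.94, SE 0.05, adjusted p 1.14e-15), just short of the fold of 2. With EC359 it was higher than with HFD by 0.19 on the log2 scale (SE 0.05, adjusted p 0.00923), a call that was lost with DESeq2 (adjusted p 0.0634) and without HFD 2 (0.0553) or HFD + EC359 2 (0.0822). Against LFD it was 1.69-fold lower (log2 fold change -0.75, SE 0.05, adjusted p 5.32e-14).

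Markers of epidermis and of epithelium moved in the same directions as Dll1. The summed level of 9 epidermis markers was 1170 to 1346 CPM with LFD, 192 to 208 CPM with HFD and 593 to 609 CPM with HFD + EC359, with 8 of the 9 lower with HFD and the same number higher with EC359. Krt14 and Krt5, keratins of basal epithelium, stood at 761 ± 68.9 and 253 ± 15.7 CPM with LFD and at 40.6 ± 0.271 and 30.5 ± 4.69 CPM with HFD. The 6 mammary epithelium markers summed to 1113 to 1135, 705 to 714 and 763 to 791 CPM in the 3 groups. No marker of either list was at 0 throughout a group. Their part in the Dll1 values was not tested.

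Jag1, a ligand of the Jagged type made by carcinoma, stromal and vessel cells, was lower in each step. It stood at 152, 145 and 157 CPM with LFD, 129, 124 and 127 CPM with HFD, and 107, 99.1 and 99.0 CPM with HFD + EC359. No library of a group overlapped with another group. The log2 fold change was -0.25 (SE 0.05, adjusted p 4.70e-05) for HFD against LFD, -0.32 (SE 0.05, adjusted p 4.15e-06) for HFD + EC359 against HFD, and -0.57 (SE 0.05, adjusted p 8.10e-12) for HFD + EC359 against LFD.

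Jag2, the second Jagged ligand, had 35.2, 30.7 and 28.5 CPM with LFD, 26.6, 28.0 and 28.0 CPM with HFD, and 28.2, 22.9 and 24.9 CPM with HFD + EC359. The lowest LFD library lay only just above the highest of the others, and the HFD and HFD + EC359 libraries overlapped. Its log2 fold change passed the test for HFD + EC359 against LFD alone (-0.31, SE 0.10, adjusted p 0.00828). With a GC content of 61.3% it was the most GC-rich of the 10 genes, and with the GC trend removed the value was 0.08 (adjusted p 0.536); without LFD 1 or HFD + EC359 2 the adjusted p was 0.0592 and 0.0552. The 95% intervals of its other log2 differences were -0.39 to 0.02 for HFD against LFD and -0.32 to 0.07 for HFD + EC359 against HFD.

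Dll4 (chr2:119151520-119161402, plus strand), the Delta ligand of sprouting endothelial cells, also rose with HFD and fell with EC359. Its level was 27.8, 25.9 and 29.8 CPM with LFD, 40.4, 38.7 and 36.2 CPM with HFD, and 32.2, 31.1 and 28.0 CPM with HFD + EC359. All HFD libraries lay above the others, and LFD and HFD + EC359 overlapped. HFD against LFD gave a log2 fold change of 0.47 (SE 0.09, adjusted p 8.19e-05) and HFD + EC359 against HFD one of -0.34 (SE 0.08, adjusted p 0.00245). HFD + EC359 against LFD gave 0.13, with a 95% interval of -0.06 to 0.32 (adjusted p 0.248), and 0.34 with the GC trend removed (adjusted p 0.00273). A gene on the opposite strand, Gm14207, overlaps Dll4, and the counting used strand.

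**Figure D2:**
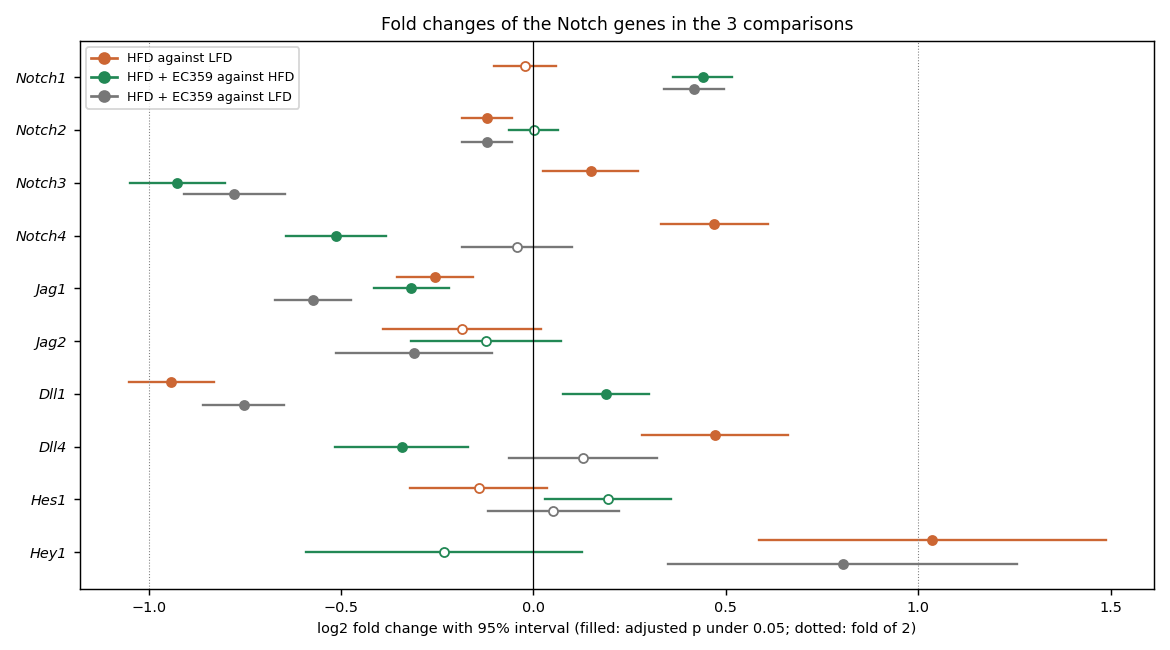
The log2 fold changes of the 10 genes are shown on a linear axis with 95% intervals for the 3 comparisons, in the order of the legend; filled points have an adjusted p under 0.05 and dotted lines mark a fold of 2. Notch4 and Dll4 have intervals above 0 for the first comparison and below 0 for the second, and the Dll1 interval lies near -0.94 for HFD against LFD.

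The summed level of the 4 ligands was 81.1 ± 2.01 CPM per kb with LFD, 60.6 ± 0.890 with HFD and 56.0 ± 2.24 with HFD + EC359 (n = 3), with no overlap between the groups. Dll1 was the largest share with LFD, at 46.5% ± 0.716, and made up 32.4% ± 0.638 with HFD and 40.0% ± 1.78 with HFD + EC359. Jag1 was the largest share with HFD, at 38.0% ± 0.206. The share of Dll4 was 9.93% ± 0.555 with LFD, 18.4% ± 0.928 with HFD and 15.7% ± 0.542 with HFD + EC359.

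**Figure D3:**
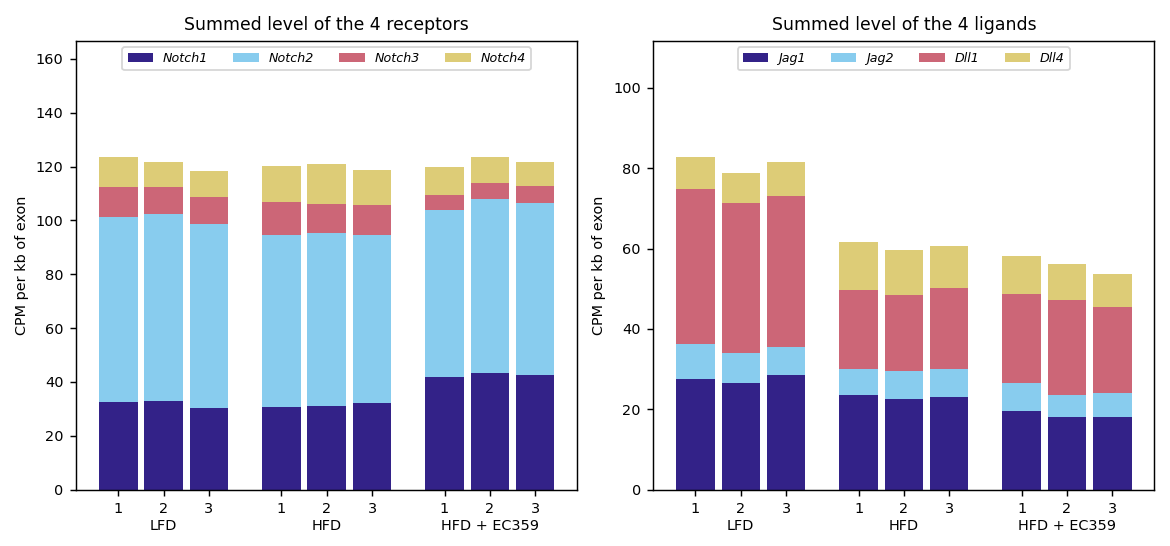
Stacked bars give the level of each receptor and of each ligand in the 9 libraries, in CPM per kb of exon on axes that start at 0. The receptor bars are of similar height with a larger Notch1 part in HFD + EC359, and the ligand bars are highest in LFD, at 78.9 to 82.8 CPM per kb.

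In order of level per kilobase of exon, Notch2 led in each group, at 69.0 ± 0.525 CPM per kb with LFD, 63.4 ± 1.03 with HFD and 63.5 ± 1.34 with HFD + EC359. With LFD, Dll1 (37.7 ± 0.576) came next, then Notch1 (31.9 ± 1.39), Hes1 (30.6 ± 3.85) and Jag1 (27.5 ± 1.02), of which each overlapped with its neighbor from Notch1 on. With HFD and with HFD + EC359, Notch1 came after Notch2 and was followed by Hes1, while Dll1 (19.6 ± 0.525 and 22.4 ± 1.12) stood below Hes1 in both. Notch3 was at 10.3 ± 0.523, 11.4 ± 0.718 and 6.00 ± 0.122 CPM per kb in the 3 groups and overlapped with Notch4 with LFD, with Dll4 with HFD, and with Jag2 with HFD + EC359. Hey1 was last in all groups.

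Promoter sequences for 8 of the 10 genes, 250 bases before to 50 after the start of the gene, were taken from RefSeq (GRCm38.p6). Stretches of the Notch4 and Dll4 promoters are shown because these endothelial genes moved together, with GGAA, the core of the sites that ETS factors bind, in capitals; both stretches lie 200 to 151 bases before the start, on the plus strand, at chr17:34564095-34564144 and chr2:119325584-119325633.
Notch4: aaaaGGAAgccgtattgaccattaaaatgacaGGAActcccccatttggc
Dll4: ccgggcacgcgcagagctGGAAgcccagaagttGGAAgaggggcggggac
The core is short: 93.4% of all 32851 promoters hold it on either strand in the 250 bases before the start.

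Endothelial markers moved in the same direction as Notch4 and Dll4 with HFD, and most of them also with EC359. The summed level of 10 such markers was 322 to 333 CPM with LFD, 539 to 572 CPM with HFD and 416 to 442 CPM with HFD + EC359. All 10 rose with HFD and 8 fell with EC359. In HFD + EC359 against LFD, 4 of the 10 were higher and 2 lower, where Notch4 and Dll4 did not pass. Cdh5 (VE-cadherin), a junction protein that defines endothelium, was at 52.4 ± 0.221, 122 ± 6.10 and 107 ± 3.21 CPM, and Kdr, the main receptor for VEGF, at 31.7 ± 1.46, 55.4 ± 3.67 and 36.8 ± 1.98 CPM. Per 1000 CPM of the markers, Notch4 was at 229, 188 and 190.5 CPM with LFD, 156, 180.5 and 158 CPM with HFD, and 160.1, 143 and 145 CPM with HFD + EC359. Relative to the markers Notch4 was thus lower with HFD than with LFD, by 0.30 on the log2 scale, and the libraries did not overlap (exact two-sided permutation test, p = 0.1, the smallest that 3 against 3 allow, for this and the other ratios). HFD + EC359 and HFD overlapped, with a log2 difference of -0.14 (exact permutation p = 0.3).

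Dll4 per 1000 CPM of the endothelial markers was 85.1 ± 4.97 with LFD, 69.5 ± 3.13 with HFD and 71.0 ± 4.21 with HFD + EC359 (n = 3). It was lower with HFD than with LFD in every library (log2 difference -0.29, exact permutation p = 0.1) and overlapped between HFD + EC359 and HFD (0.03, exact permutation p = 0.8). With the median over markers in place of the sum, the HFD + EC359 against HFD difference was 0.18 for Dll4 and 0.006 for Notch4.

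Mural markers were compared with Notch3 in the same way. The 8 markers, of which Pdgfrb is also made by fibroblasts and Mcam also by endothelial cells, summed to 463 to 468 CPM with LFD, 568 to 573 CPM with HFD and 527 to 534 CPM with HFD + EC359. Of the 7 that were tested, 5 rose with HFD, Des fell and Cspg4 did not pass; 4 fell with EC359. Rgs5, a pericyte gene, was at 14.2 ± 2.07, 30.4 ± 2.24 and 21.9 ± 0.683 CPM, and Des, the muscle filament desmin, at 46.4 ± 2.40, 28.3 ± 0.463 and 31.1 ± 0.950 CPM. Pdgfrb carried the most of the sum, at 282 ± 3.18, 334 ± 3.79 and 330 ± 4.58 CPM. Notch3 per 1000 CPM of the markers was 176 ± 7.89 with LFD, 159 ± 9.97 with HFD and 89.9 ± 2.02 with HFD + EC359. For HFD against LFD the log2 difference was -0.15 (exact permutation p = 0.1, no overlap), and -0.76 with the median over markers. The drop with EC359 relative to HFD was -0.82 on the log2 scale with no overlap (exact permutation p = 0.1), and -0.43 with the median over markers.

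**Figure D4:**
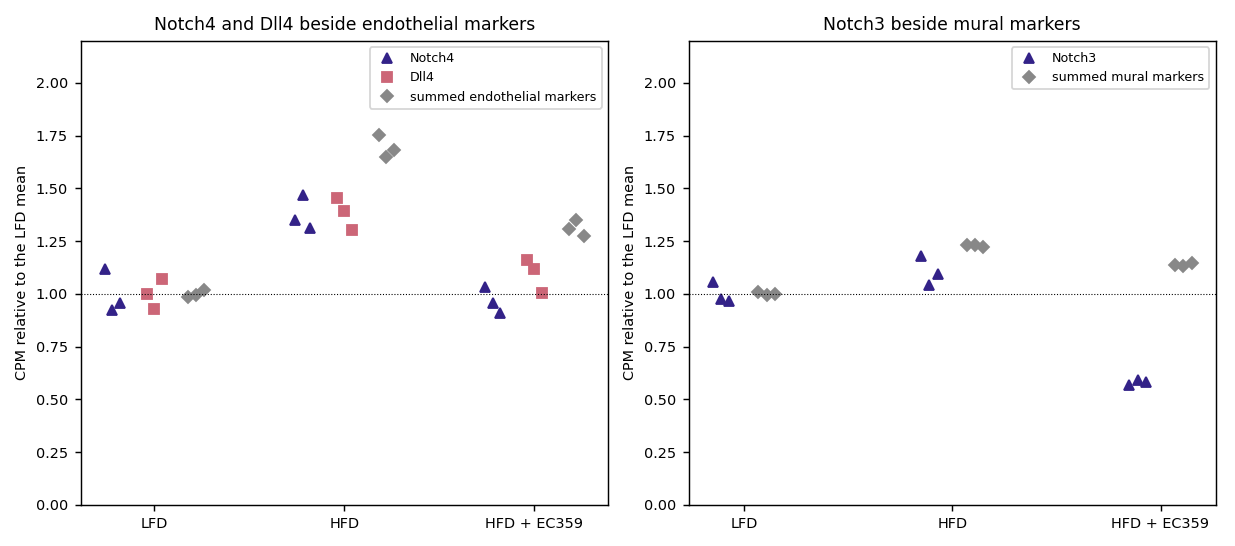
Points are single libraries of the 3 groups, as CPM divided by the mean of the LFD libraries on an axis from 0, for Notch4, Dll4 and the summed endothelial markers on the left and for Notch3 and the summed mural markers on the right. The endothelial markers rise further than Notch4 and Dll4 with HFD, and Notch3 is low with EC359, at 46.6 to 48.6 CPM, where the mural markers sum to 527 to 534 CPM, below their 568 to 573 CPM with HFD.

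Other host cells also differed between the groups. The 6 fibroblast markers summed to 6137 to 7401 CPM with LFD, 10520 to 11061 CPM with HFD and 3065 to 3149 CPM with HFD + EC359, a sum carried by the collagen genes Col1a1 and Col1a2. All 6 rose with HFD; with EC359, 4 fell relative to HFD (Col1a1, Col1a2, Lum and Postn), Pdgfra rose (374 ± 8.49 to 475 ± 7.95 CPM) and Dcn did not pass. Against LFD, 3 of the 6 were higher (Dcn, Pdgfra and Postn) and 2 lower (Col1a1 and Col1a2) with HFD + EC359. Macrophage markers (6) summed to 1310 to 1342, 1246 to 1259 and 1577 to 1596 CPM, T cell markers (5) to 9.81 to 13.6, 8.11 to 9.32 and 12.7 to 14.9 CPM, adipocyte markers (6) to 8.10 to 10.0, 21.3 to 25.3 and 22.3 to 25.9 CPM, and skeletal muscle markers (5) to 88.3 to 95.1, 109 to 121 and 64.8 to 69.3 CPM. Macrophages and T cells also express Notch1, and the mean sums of their markers were highest with EC359, as Notch1 was. The T cell sums were low, and those of the LFD and HFD + EC359 libraries overlapped. The mean adipocyte sum was also highest with EC359, at 23.8 CPM against 23.1 CPM with HFD and 8.84 CPM with LFD. Its HFD and HFD + EC359 libraries overlapped. The mean sums of endothelial, mural, fibroblast and skeletal muscle markers were highest with HFD, and those of epidermis and mammary epithelium with LFD. None of these markers was at 0 in all libraries of a group, and their part in the Notch values was not tested.

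Of the target genes, Hes1, a repressor that many cell types induce through Notch and also through other signals, did not pass the test in any comparison. Its level was 46.4, 48.6 and 38.0 CPM with LFD, 39.2, 42.0 and 39.5 CPM with HFD, and 47.2, 47.4 and 43.5 CPM with HFD + EC359. The HFD + EC359 libraries lay above the HFD libraries, and the LFD libraries overlapped with both. HFD + EC359 against HFD gave a log2 difference of 0.19, with a 95% interval of 0.03 to 0.36 and an adjusted p of 0.0737, which was 0.0301 with only these 6 libraries fitted, 0.0348 with library totals alone and 0.0364 without LFD 1. HFD against LFD gave -0.14, with an interval of -0.32 to 0.04 and an adjusted p of 0.172, which was 0.0246 without LFD 3.

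Hey1 (chr3:8663359-8667038, minus strand), a target and repressor known in endothelium, was the least abundant of the 10 genes and had the largest fold change. Its counts were 17, 18 and 20 in the LFD libraries, 47, 54 and 52 in the HFD libraries, and 52, 48 and 54 in the HFD + EC359 libraries, which is 2.82 to 3.52, 5.92 to 7.08 and 5.39 to 6.30 CPM. All LFD libraries lay below the other 6, and HFD and HFD + EC359 overlapped. Hey1 was 2.05-fold higher with HFD than with LFD (log2 fold change 1.04, SE 0.22, adjusted p 2.05e-04) and 1.75-fold higher with HFD + EC359 than with LFD (0.80, SE 0.22, adjusted p 0.00254). It fell short of the fold of 2 without LFD 2, HFD 2 or HFD 3, and was called at an adjusted p under 0.05 under every alternative run. The difference of HFD + EC359 from HFD had a 95% interval of -0.59 to 0.13 on the log2 scale (adjusted p 0.364).

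Hey1 and Dll1 had the largest log2 fold changes of the 10 genes in HFD against LFD, and their patterns over the 9 libraries were set beside those of all genes with a mean log2 CPM of at least 3. The likeness was the root mean square difference of log2 CPM values centred on each gene's mean, and the libraries share their depth and GC differences. Closest to Hey1 were Scarf1, a scavenger receptor first found on endothelial cells, at 0.0651, Dlc1 at 0.120, and Plat, the tissue plasminogen activator, at 0.135. Closest to Dll1 were Adc at 0.0745, Rnf19b at 0.0748 and Pvrl1, the adhesion molecule nectin-1, at 0.0874.

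Beyond these 10, the pathway list held 48 other genes, of which 40 were tested. With HFD, 10 rose and 12 fell relative to LFD, and 18 did not pass, beside 26% of all tested genes called higher and 25.8% lower. With EC359, 6 rose and 7 fell relative to HFD, beside 12.7% and 13.9% of all genes. That count was 8 in all with DESeq2, 6 without HFD 1 and 7 without HFD + EC359 1. In HFD + EC359 against LFD, 11 were higher and 14 lower, beside 29.2% and 29.1% of all genes. The same shares of all genes stand beside the counts by role below. The medians of the log2 fold changes of the 40 genes were -0.01, 0.02 and -0.06. Some calls were lost under alternatives, among them those of Mib2, Mfng and Maml3 for HFD + EC359 against HFD with DESeq2. The 8 genes not tested were Dll3, Dlk1, Dner, Dtx1, Hes2, Hes5, Hes7 and Hey2, and Hes2 and Hes5, the latter a target gene of neural cells, had no counts in any library.

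Among genes that prepare ligands and receptors, 2 of 9 rose and 5 fell with HFD, and 1 rose and 2 fell with EC359. Lfng, the fringe enzyme that adds sugars to Notch and shifts its response between Delta and Jagged ligands, fell from 89.7, 77.9 and 87.8 CPM with LFD to 61.5, 56.3 and 55.7 CPM with HFD, and was at 54.8, 55.1 and 50.1 CPM with HFD + EC359. All LFD libraries lay above the others (HFD against LFD log2 fold change -0.55, SE 0.07, adjusted p 3.38e-08). Poglut1, which adds glucose to the repeats of the receptor, rose in both steps, by 0.31 (SE 0.10, adjusted p 0.0109) and 0.29 (SE 0.09, adjusted p 0.0135) on the log2 scale, calls that were lost without LFD 1, HFD 2 or HFD 3, or with the GC trend removed (0.18, adjusted p 0.146), for the first and without HFD 1 or HFD + EC359 1, or with DESeq2, for the second. Dlk2, the single tested gene of 4 other ligands, fell with HFD by 0.67 on the log2 scale (SE 0.23, adjusted p 0.0132), which did not hold with DESeq2 (adjusted p 0.0605), without LFD 3 or HFD 2, or with the GC trend removed.

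A stretch of the Lfng promoter is shown because it holds TGGGAA, the core of the site that RBPJ binds, on both strands (capitals, where TTCCCA is the core on the minus strand); it lies 150 to 81 bases before the start at chr5:140607191-140607260 of GRCm38.p6, plus strand.
Lfng: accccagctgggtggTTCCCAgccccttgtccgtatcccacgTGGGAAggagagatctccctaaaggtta
TGGGAA was present in none of the 9 promoters of the 8 members matched, in 13 of 48 promoters of the 36 other pathway genes matched, and in 21.6% of all promoters, over the 250 bases before the start and on either strand. It contains the letters GGAA of the ETS core.

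Of the 10 genes for proteases that cut Notch and their subunits, 2 rose and 3 fell with HFD, and 2 rose and 1 fell with EC359. Adam10, the sheddase that makes the ligand-induced cut, was at 108 to 115 CPM with LFD, 143 to 145 CPM with HFD and 157 to 164 CPM with HFD + EC359, without overlap. Its log2 fold change was 0.36 (SE 0.05, adjusted p 1.44e-07) for HFD against LFD and 0.16 (SE 0.04, adjusted p 0.00575) for HFD + EC359 against HFD; both calls were lost with the GC trend removed (0.07 and 0.08). Furin, which cuts the receptor on its way to the surface, went the other way, from 469.8 to 532 CPM with LFD to 359 to 391 CPM with HFD (-0.38, SE 0.04, adjusted p 3.34e-09) and 338 to 355 CPM with HFD + EC359 (-0.13, SE 0.04, adjusted p 0.0156, lost without any 1 of 4 libraries, HFD 1, HFD 2, HFD + EC359 1 or HFD + EC359 3, with library totals alone and with the GC trend removed).

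In the nuclear complex that Notch joins at its target genes, 3 of 10 rose with HFD (Rbpj, Maml2 and Ep300) and none fell, and 3 rose and 1 fell with EC359. Maml2, a Mastermind coactivator, was the single one of the 40 genes past a fold of 2 and an adjusted p under 0.01, in HFD + EC359 against LFD. It was at 6.34, 10.5 and 10.9 CPM with LFD, 19.0, 17.0 and 18.7 CPM with HFD, and 25.4, 26.0 and 24.8 CPM with HFD + EC359, so that the 3 groups did not overlap. The log2 fold change was 0.95 (SE 0.14, adjusted p 1.21e-06) for HFD against LFD, 0.48 (SE 0.11, adjusted p 7.92e-04) for HFD + EC359 against HFD and 1.43 (SE 0.13, adjusted p 4.25e-11) for HFD + EC359 against LFD. Ep300, the acetyltransferase p300, moved in the same directions, by 0.39 (SE 0.05, adjusted p 1.92e-08) and 0.13 (SE 0.04, adjusted p 0.0196, lost with DESeq2 and without HFD 1, HFD 2, HFD + EC359 1 or HFD + EC359 2).

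Of 8 tested brakes on the pathway, 3 rose and 2 fell with HFD and 2 fell with EC359. Among these calls, the rise of Dtx3 and the fall of Numbl with HFD were lost with DESeq2 (adjusted p 0.138 and 0.110). The fall of Dtx3 with EC359 was also lost with DESeq2 (adjusted p 0.0944). With the GC trend removed, the rise of Fbxw7 with HFD was lost (log2 fold change 0.15) and Numbl changed sign (0.14). Itch, a ubiquitin ligase that targets Notch for degradation, was at 82.2 to 91.9 CPM with LFD, 126 to 139 CPM with HFD and 136 to 139.6 CPM with HFD + EC359 (HFD against LFD log2 fold change 0.59, SE 0.05, adjusted p 7.31e-11). Nrarp, a feedback inhibitor that Notch itself induces, was at 84.2, 77.5 and 70.6 CPM with LFD, 59.5, 59.0 and 62.6 CPM with HFD, and 50.2, 48.9 and 47.8 CPM with HFD + EC359. It fell in both steps without overlap, by 0.36 (SE 0.07, adjusted p 4.13e-05) and 0.30 (SE 0.07, adjusted p 7.80e-04) on the log2 scale. Among the other Hes and Hey genes, Heyl, a target in mural cells, was at 4.86 to 5.28 CPM with LFD, 5.85 to 7.31 CPM with HFD and 3.27 to 3.99 CPM with HFD + EC359, and fell with EC359 by 0.81 on the log2 scale (SE 0.19, adjusted p 0.00162). Hes6 fell with HFD by 0.35 (SE 0.11, adjusted p 0.0111), which did not hold with DESeq2, without LFD 1 or with the GC trend removed (-0.07).

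**Figure D5:**
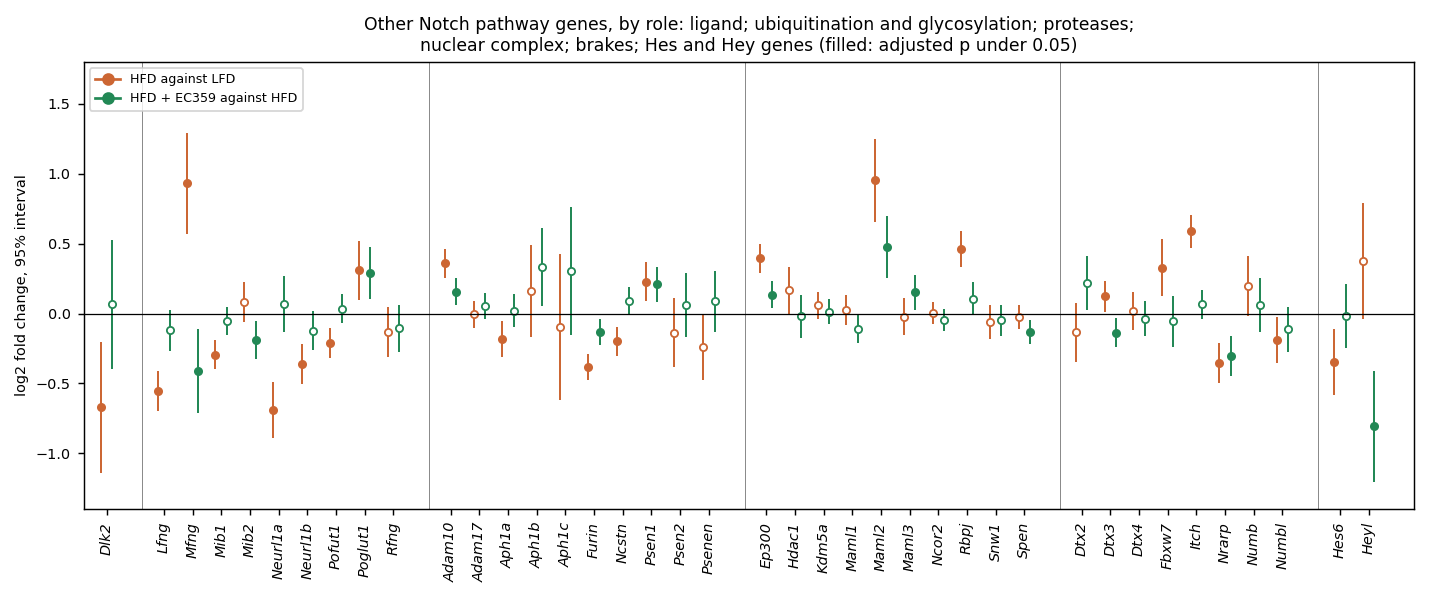
For each of the 40 other pathway genes tested, grouped by role, points give the log2 fold change and lines the 95% interval for HFD against LFD and HFD + EC359 against HFD; filled points have an adjusted p under 0.05. Genes moved in both directions within most roles, and Maml2 is above 0 in both comparisons.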

How the data were processed

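RNA-seq counts of 9 tumor libraries (3 each of LFD, HFD and HFD + EC359) were analyzed. The authors deposited expected counts per gene without normalization, made per the file headers with featureCounts 1.5.0-p1 on mm9 from stranded read pairs of 150 bases, with a minimum mapping quality of 2 and read pairs over several genes or positions counted in fractions. The submitters' processing notes name HISAT2 2.1.0 as aligner, and the paper's methods name TopHat2 and HTSeq. Splitting makes counts of genes with near-identical copies uncertain; 1.19% to 3.55% of the genes of a library held fractions.

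Counts were rounded to whole numbers. With edgeR 4.0.16 in R 4.3.3, filterByExpr by group left 13366 of 22609 genes, libraries were scaled with TMM factors, and 1 quasi-likelihood model with 3 groups gave the comparisons, with Benjamini-Hochberg adjustment. The biological coefficient of variation was 3.63%. CPM values are TMM-scaled. Levels were divided by exon length to compare genes. Ratios to markers were compared by exact two-sided permutation tests. On counts simulated for HFD against LFD over 13224 genes, 75 of 98 planted 1.5-fold and 90 of 99 planted 2-fold changes were called. Of the 13027 unchanged genes, 5 were called. Between the real groups, 26% of tested genes were called higher and 25.8% lower, and the libraries differed by GC content. The simulated counts therefore do not give the rate of false calls between the real groups. GC content came from the mm9 genome.

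The 10 genes, the pathway and marker lists, and the tests were chosen with earlier results of these data known. The text names all 10 genes, and of the others, in each role, the gene with the lowest adjusted p in HFD against LFD and in HFD + EC359 against HFD, and those past a fold of 2 with an adjusted p under 0.01; single markers and genes listed by role were named after their values were seen. Alternatives were DESeq2 1.42.0, RLE factors, library totals alone, other filters, the 6 libraries of a comparison, the replicate block, removal of each library's GC and length trend, the median over markers for the ratios, and each library left out. Promoters were read from RefSeq; amino acid sequences were not used here.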

Additional observations from a re-analysis of the deposited data

How the results depend on the processing

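Over 510 fold changes recomputed for the 10 genes, 478 kept their direction and their side of an adjusted p of 0.05, 12 were no longer past it, 5 newly passed and 15 changed sign. The changes of sign concerned 6 differences, of which 5 were not called and Jag2 in HFD + EC359 against LFD was. For HFD against LFD, Notch1 was 0.0204 with library totals alone and 0.0822 with the GC trend removed, and Jag2 0.0821 with the GC trend removed. For HFD + EC359 against HFD, Notch2 was -0.00610 with DESeq2, -0.00423 with RLE factors and -0.000831 with the 6 libraries alone, and ran from -0.0163 to 0.0177 with 1 library left out (below 0 without LFD 2, HFD 3, HFD + EC359 2 or HFD + EC359 3). For HFD + EC359 against LFD, Notch4 was 0.0320 with library totals alone and 0.307 with the GC trend removed (adjusted p 1.08e-04, edgeR), and ran from -0.107 to 0.0343 with 1 library left out (above 0 without LFD 1). In the same comparison Jag2 was 0.0760 with the GC trend removed, and Hes1 ran from -0.0494 (without LFD 3) to 0.123. The cause was not tested.

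The count of the 10 genes past a fold of 2 in HFD against LFD was 0 to 1 with 1 library left out (0 without LFD 2, HFD 2 or HFD 3). The count of other pathway genes called in HFD + EC359 against HFD was 8 with DESeq2 and 6 to 16 with 1 library left out. With the median over markers, Notch3 per mural marker level was -0.76 for HFD against LFD, -0.43 for HFD + EC359 against HFD and -1.20 for HFD + EC359 against LFD; Notch4 per endothelial marker level was 0.00593 and -0.245, and Dll4 0.177 and -0.0695, for the last 2 comparisons. Library totals alone moved the split of all called genes from 1697 higher and 1852 lower to 2096 and 1495 for HFD + EC359 against HFD, and from 3900 and 3887 to 4676 and 3149 for HFD + EC359 against LFD. Libraries of 1 replicate number did not deviate together (correlations of -0.03 to 0.02 over 9 pairs, against -0.02 to 0.03 over 18 pairs of other numbers); with the replicate block 7, 6 and 7 of the 10 genes were called in the 3 comparisons, as without it, and 21, 12 and 25 of the other genes. Genes of few counts such as Hey1 (17 to 54) limit what fold can be told from 2.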
